A study of Mus musculus with 34 samples.

Results

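The genes described here are the core genes of mitosis and chromosome segregation: the cyclin-dependent kinase that starts mitosis with its partners, the mitotic kinases, the spindle checkpoint, the kinetochore, the chromosomal passenger complex, the mitotic kinesins, the spindle and cytokinesis genes, the proteins that shape chromosomes, and Mki67 and Foxm1. The list names 51 genes, and a gene was measured where a probe set of the array carried its symbol and no other. This left 50 of 51 genes, out of 18193 genes measured in all. Ccnb1 (cyclin B1) had no such probe set and is not described. The brightest such probe set of a gene, by its mean over the 34 arrays, stood for it.

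Liver RNA of 34 mouse samples was hybridised to Affymetrix arrays, 1 array per sample, to follow fibrosis and tumour growth in Pdgf-c Tg mice, whose transgene encodes platelet-derived growth factor C. Wild-type C57/B6 livers were sampled at week 20 (n = 5) and week 48 (n = 4), and livers of Pdgf-c Tg mice without peretinoin at week 20 (n = 5) and week 48 (n = 5). Pdgf-c Tg mice that ate the acyclic retinoid peretinoin at 0.06% of the diet, from weaning in week 4, were sampled at week 20 (n = 5) and week 48 (n = 5), and tumours of Pdgf-c Tg mice without peretinoin were taken at week 48 (n = 5). The labels give neither the promoter that drives the transgene nor the sex of the mice, they name no strain for the transgenic mice beyond Pdgf-c Tg, and whether any tumour shares its mouse with a sampled liver is not given. No wild-type mice on peretinoin are part of the 7 groups. The labels do not state that samples of a group came from separate animals, so the tests below measure the spread between these samples.

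Most hepatocytes of an adult liver are out of the cell cycle, and the transcripts of mitotic genes are scarce in resting liver. Cells that re-enter the cycle switch these genes on together late in the cycle, in G2 and mitosis, and the level of the group in a tissue is widely used as a readout of cell division. In resting cells the DREAM complex holds many of them off through promoter elements called CHR (cell cycle genes homology region), and in cycling cells B-MYB and FOXM1 act through the same elements. CCAAT boxes, which bind the factor NF-Y, often lie nearby. RNA of whole tissue cannot tell apart more dividing cells from more RNA per dividing cell.

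The promoters of the members held these letters more often than those of all genes on the array, as did the promoters of other mitosis genes. Promoter windows of RefSeq (build GRCm38.p6), 250 bases before to 50 bases after a gene's start, were at hand for 43 of the 50 members, in 46 windows, since some genes have several starts. Not in that table were Aurkb, Ccna2, Foxm1, Incenp, Kif20a, Pbk and Tpx2. A CHR was searched as TTTGAA or TTCGAA and a CCAAT box as CCAAT, each on both strands, and the motifs were searched independently of each other, so that neighbouring matches may share a base. A CHR stood in 73.9% of the members' windows and in 15.1% of the 18110 windows of all genes on the array. Within 50 bases of the start the shares were 69.6% and 3.89%. A CCAAT box stood in 69.6% of the members' windows against 37.4% of all, and both motifs in 58.7% against 5.97%. At least 2 CCAAT boxes were found in 45.7% of the members' windows and 12.8% of all windows. In 62 windows of other mitosis genes, from the wider list described last, the shares were 58.1% for a CHR, 71.0% for a CCAAT box, 48.4% for both and 43.5% for at least 2 CCAAT boxes, so a CCAAT box was no more frequent in the members. These are matches of letters, not sites shown to be bound.

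The windows of Cdk1, Mki67, Top2a and Plk1 are shown. Of the panel listed under the processing, they are the first 4 genes, in order, whose window holds both motifs. Cdc20 of that panel also held both and is not shown. Each is written 5′ to 3′ along the gene, in lower case, with CHR and CCAAT matches on either strand in capitals:
Cdk1, chr10:69352863-69353162, minus strand: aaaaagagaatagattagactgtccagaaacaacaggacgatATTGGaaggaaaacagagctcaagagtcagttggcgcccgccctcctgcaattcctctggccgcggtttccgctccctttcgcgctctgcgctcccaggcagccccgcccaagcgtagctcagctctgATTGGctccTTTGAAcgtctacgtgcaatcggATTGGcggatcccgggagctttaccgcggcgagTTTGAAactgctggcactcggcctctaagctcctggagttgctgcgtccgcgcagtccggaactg
Mki67, chr7:135716330-135716629, minus strand: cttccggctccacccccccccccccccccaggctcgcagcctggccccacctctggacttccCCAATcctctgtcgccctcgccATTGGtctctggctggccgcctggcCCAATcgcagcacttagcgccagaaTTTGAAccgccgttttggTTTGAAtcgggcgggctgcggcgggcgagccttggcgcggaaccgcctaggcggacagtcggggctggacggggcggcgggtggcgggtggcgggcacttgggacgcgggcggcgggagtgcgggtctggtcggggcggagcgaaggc
Top2a, chr11:99024140-99024439, minus strand: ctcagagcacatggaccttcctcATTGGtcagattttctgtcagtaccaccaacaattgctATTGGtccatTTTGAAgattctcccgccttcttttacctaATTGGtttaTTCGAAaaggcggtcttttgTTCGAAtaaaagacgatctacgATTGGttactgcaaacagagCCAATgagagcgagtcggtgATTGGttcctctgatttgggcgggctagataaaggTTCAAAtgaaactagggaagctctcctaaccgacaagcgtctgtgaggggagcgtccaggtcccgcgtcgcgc
Plk1, chr7:122159185-122159484, plus strand: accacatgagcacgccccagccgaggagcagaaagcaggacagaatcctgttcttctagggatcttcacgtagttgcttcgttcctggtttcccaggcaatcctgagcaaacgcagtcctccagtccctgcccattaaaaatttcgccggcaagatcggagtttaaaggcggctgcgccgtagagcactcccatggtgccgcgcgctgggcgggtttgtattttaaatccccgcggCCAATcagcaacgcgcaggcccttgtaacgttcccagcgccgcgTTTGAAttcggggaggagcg
In Cdk1 the CHR matches began 71 and 15 bases before the start, and the nearer CCAAT matches, written ATTGG on this strand, began 80 and 48 bases before it. Mki67 held its CHR matches 116 and 98 bases before the start. Top2a had 4 CHR and 6 CCAAT matches, the densest of the 4 windows. Plk1 had 1 of each, with the CCAAT box 14 bases before the start and the CHR 31 bases after it.

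**Figure D1:**
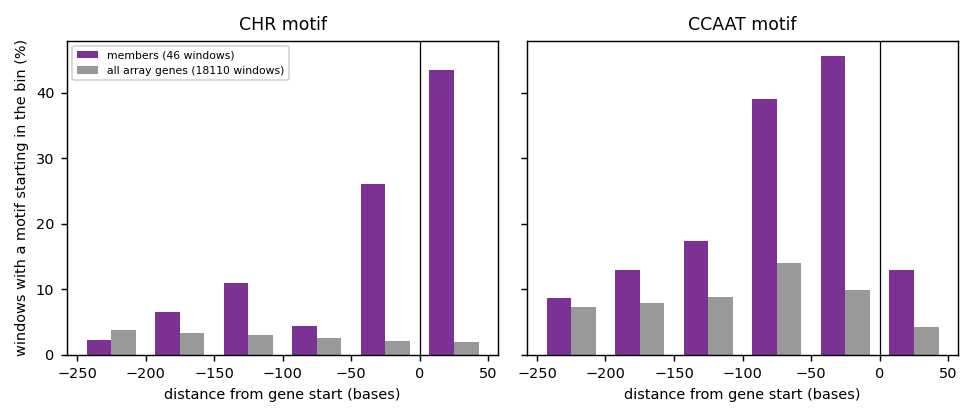
Share of promoter windows (%, vertical axis) in which a CHR (left) or CCAAT match (right) begins, by distance from the gene start in bins of 50 bases, for the members' 46 windows and the 18110 windows of all genes on the array. The members' CHR matches gather in the bins on both sides of the start and their CCAAT matches in the 100 bases before it.

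Members without a CHR in the window were Birc5, Cenpe, Cenph, Cks2, Mad2l1, Melk, Ncaph, Nek2, Nuf2, Nusap1, Plk4 and Zwint. Their changes are set beside those of the other members without a test. The median log2 change from wild-type liver to tumour at week 48 was 1.96 for the 31 members with a CHR, of which 27 were called higher, and 1.63 for the 12 without, of which 11 were called higher (12.5% of all genes were). From wild-type to transgenic liver the medians were 0.77 and 0.75, with 5 of the 31 and 4 of the 12 called higher (9.73% of all genes).

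Signals were analysed as log2(signal + 16), so the changes of weakly expressed genes are understated, and a gene was called at a limma adjusted p (Benjamini-Hochberg over the 18193 genes) under 0.05. The median signal of an array lay between 71.3 and 95.5. A list of 8 hepatocyte genes averaged 14.2 to 14.9 on the log2 scale in all 34 arrays, as liver would. In 6 arrays skeletal muscle or pancreatic acinar genes lay at least 3 log2 units over their median across the arrays: wild type replicate 4, transgenic replicate 4 and peretinoin replicate 1 at week 48, and transgenic replicate 5 and peretinoin replicates 3 and 5 at week 20. The Actb 3′/5′ ratio, a sign of RNA integrity, ran from 1.25 to 3.31 and differed between some groups. Precision is limited by the 4 or 5 arrays of each group.

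Mean signals of most mitotic genes were lowest in wild-type liver of week 48 and highest in tumours. The median of the members' mean signals was 75.0 in wild-type, 102.6 in transgenic and 101.8 in peretinoin-fed liver at week 20. At week 48 it was 56.8 in wild-type, 126.6 in transgenic and 226.8 in peretinoin-fed liver, and 351.1 in tumours. In wild-type liver at week 48 the mean of 37 of the 50 members lay under the array median, and in tumours that of 3 members did. Tumours had the highest mean of the 7 groups for 46 of 50 members, and wild-type liver at week 48 had the lowest for 34. The 4 others were Cks2, highest in peretinoin-fed liver at week 20, Nek2 in peretinoin-fed liver at week 48, Bub1b in transgenic liver at week 20 and Zwint in wild-type liver at week 20.

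The mean log2 level of the 50 members in each array shows how much samples of a group differed. At week 48 it was 6.43, 6.21, 6.11 and 6.27 in wild-type livers, the narrowest group (SD 0.13). Transgenic livers gave 6.91, 6.64, 6.83, 7.38 and 7.53, all above the wild type of that age. Tumours gave 8.86, 7.28, 8.15, 7.73 and 8.87, and tumour replicate 2 lay below 2 of the transgenic livers. Peretinoin-fed livers at week 48 were the widest group (SD 1.04): replicates 1 to 3 gave 6.35, 6.83 and 6.77, and replicates 4 and 5 gave 8.31 and 8.68, above 3 of the 5 tumours. At week 20 the range was 6.38 to 6.95 in wild-type, 6.46 to 7.25 in transgenic and 6.41 to 7.37 in peretinoin-fed livers, and these ranges overlap.

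**Figure D2:**
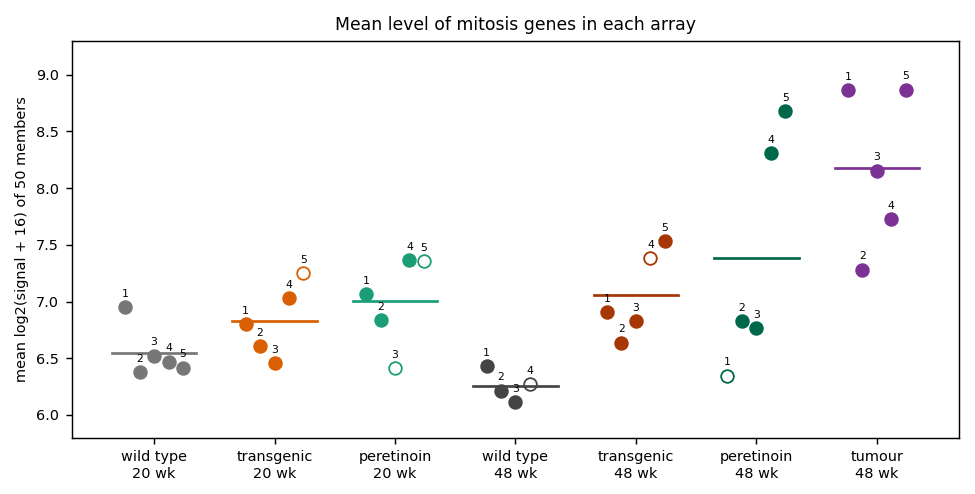
Mean log2(signal + 16) of the 50 members in each of the 34 arrays (points, numbered by replicate) with the group mean (line), by group. Open points are the 6 arrays with muscle or pancreas transcripts. Wild-type livers at week 48 lie lowest, at 6.11 to 6.43, and 2 peretinoin-fed livers at week 48 (8.31 and 8.68) lie among the tumours.

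The first question was which mitotic genes differed between transgenic and wild-type liver at week 48, and how far tumours stood from wild-type liver. In transgenic liver 10 of 50 members (20%) rose and 0 fell, where 9.73% of all genes tested were called higher and 4.6% lower. Rises and falls here and in the role groups below are against wild-type liver of week 48, not against an earlier age. The median log2 change was 0.79 for the members and 0.00 for all genes. In tumours 44 members (88%) rose against wild-type liver and 0 fell, where 12.5% of all genes were called higher and 6.56% lower, and the medians were 1.87 and 0.00. The role groups below are small. Their counts stand beside these same shares of all genes, 12.5% in tumours and 9.73% in transgenic liver, and do not set 1 role apart from another. The groups did not overlap for 14 members between transgenic and wild-type liver (10.4% of all genes did so in that direction) and for 39 members between tumours and wild-type liver (11.7%). Both comparisons share the 4 wild-type livers of week 48. Of the called genes as a whole 67.9% and 65.5% were higher, and 84.3% and 79.4% after median centring of the arrays.

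Cdk1, the kinase that drives entry into mitosis, had the largest log2(signal + 16) change of the members in tumours against wild-type liver, though the ratio of mean signals was larger for Nuf2 and Bub1, which had lower signals. The signals of Cdk1 at week 48 were 87.3, 24.1, 58.1 and 11.8 in wild-type livers, 158.7, 129.7, 184.4, 315.4 and 331.8 in transgenic livers, and 1518, 360.1, 561.8, 590.6 and 1246.4 in tumours. The 3 groups do not overlap at any point. Against wild-type liver of that week, Cdk1 was 4.18-fold higher in transgenic liver (log2 2.06 ± 0.47 SE, limma adjusted p = 0.00251) and 14.1-fold higher in tumours (3.82 ± 0.47, adjusted p = 5.89e-07). Ccna2, the A-type cyclin of S phase and G2, gave 121.4, 135.6, 48.3 and 23.7 in wild-type livers. Transgenic livers gave 176.3, 129.8, 137, 242.1 and 279.7, of which 1 lay inside the wild-type range, and tumours 699.5, 231.3, 407.1, 287.5 and 579.1. Ccna2 rose by 1.23 ± 0.40 in transgenic liver (limma adjusted p = 0.0338) and by 2.31 ± 0.40 in tumours (adjusted p = 7.47e-05). Cks2, a small subunit of cyclin-dependent kinases, had high signals in all groups. It gave 1376.8, 1598, 1227.6 and 1108.3 in wild-type and 2081.7, 1988.5, 1759.1, 2405.4 and 1753.2 in transgenic livers without overlap, a rise of 0.59 ± 0.18 (limma adjusted p = 0.0233). In tumours its signals were 3144.5, 2239.7, 1965.9, 3058.9 and 2802.9 (0.97 above wild type, called). Of this group all 5 genes rose in tumours, with Ccnb2 (cyclin B2) at 2.32 and Cdca3, a cell cycle regulator, at 2.08.

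**Figure D3:**
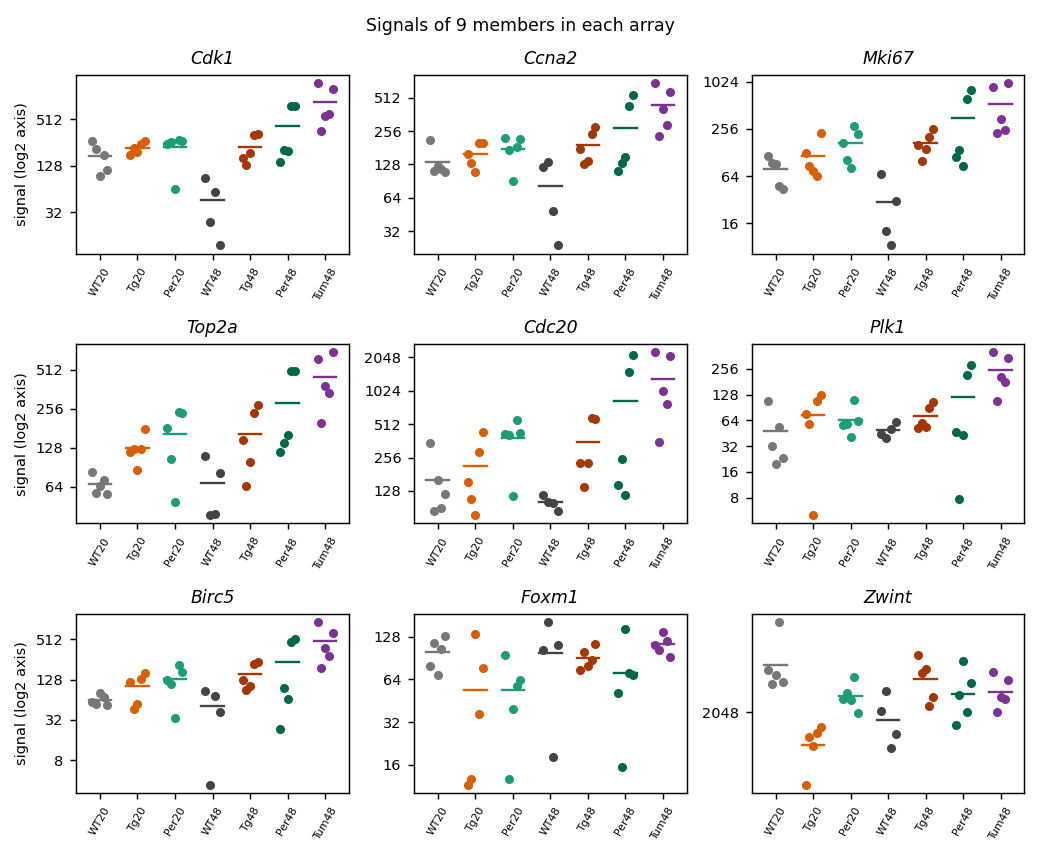
Signals (log2 axis) of 9 members in each array (points) with the group mean (line). WT is wild type, Tg transgenic, Per peretinoin-fed transgenic and Tum tumour, at week 20 or 48. Cdk1 runs from 11.8 to 87.3 in wild-type livers and from 360.1 to 1518 in tumours at week 48, whereas Foxm1 and Zwint overlap between those groups.

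All 6 mitotic kinases rose in tumours against wild-type liver without overlap, and 1 of them, Plk4, rose in transgenic liver. Plk4, the kinase that starts centriole duplication, gave 49.7, 32.9, 61.5 and 22.8 in wild-type and 107.7, 50.3, 56.9, 101 and 141.6 in transgenic livers, where replicates 2 and 3 lay inside the wild-type range (0.87 ± 0.29, limma adjusted p = 0.0402). Its tumour signals were 199.1, 110.3, 151, 172.5 and 204.5 (1.69 ± 0.29, adjusted p = 6.87e-05). Plk1, the kinase of centrosome maturation and mitotic exit, rose in tumours against wild-type liver. It gave 43.9, 39.6, 50.5 and 60.9 in wild-type livers, 52.1, 59, 53.7, 89.9 and 105 in transgenic livers, and 399.6, 107.1, 206.9, 180.3 and 342 in tumours. Plk1 rose by 1.90 ± 0.54 in tumours against wild type (limma adjusted p = 0.0108) and had a change of 0.41 in transgenic liver that did not pass (adjusted p = 0.685). Pbk, a mitotic kinase of the MAPKK family, gave 53.2, 74, 72 and 93.6 in wild-type livers and 1014.4, 340.2, 640.1, 385.7 and 1091.4 in tumours. That is a rise of 2.86 ± 0.48 (limma adjusted p = 5e-05). Aurka, the kinase of spindle poles, rose by 1.99, Nek2, a centrosome kinase, by 1.82 and Melk by 1.53.

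In the spindle checkpoint and the anaphase-promoting complex 5 of 6 genes rose in tumours against wild-type liver and 0 of 6 passed in transgenic liver. Cdc20, the activator of the anaphase-promoting complex, gave 118.1, 101.8, 99.2 and 84.8 in wild-type livers and 229.5, 138.2, 227.2, 581 and 573.4 in transgenic livers. Its tumour signals were 2274.9, 354.3, 1018.9, 774.6 and 2105.3. No transgenic liver or tumour lay within the wild-type range. The change was 1.45 ± 0.66 in transgenic liver (limma adjusted p = 0.148), which did not pass, and 3.22 ± 0.66 in tumours (adjusted p = 0.000552). Ube2c, the ubiquitin-conjugating enzyme of that complex, rose by 3.19 in tumours, Bub1, a checkpoint kinase, by 2.63, Ttk (Mps1, the kinase at the top of the checkpoint) by 2.51 and Mad2l1 (Mad2, which holds Cdc20 in check) by 1.79. The exception was Bub1b (BubR1), treated further on.

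Kinetochore genes, which tie chromosomes to the spindle, rose in 6 of 7 cases in tumours and in 2 of 7 in transgenic liver. Cenpa, the histone H3 variant that marks centromeres, gave 68.2, 103.5, 109.5 and 158.2 in wild-type, 237.9, 178.3, 200.7, 351.4 and 336.9 in transgenic livers and 532, 248.2, 447.5, 289.5 and 698.1 in tumours. Every wild-type liver lay below every transgenic liver. Cenpa rose by 1.14 ± 0.29 in transgenic liver (limma adjusted p = 0.007) and by 1.82 ± 0.29 in tumours (adjusted p = 2.92e-05), although with the mean over its probe sets, the others of which are dim, the change in transgenic liver was -0.08. Nuf2, a part of the NDC80 complex that grips microtubules, was near the floor in wild-type livers at 20.6, 7.1, 8.2 and 12.4. It gave 53.2, 67, 70.4, 144.5 and 165.8 in transgenic livers and 429, 107.4, 268.6, 198.6 and 481.6 in tumours. Again the wild type did not overlap with either group, and Nuf2 rose by 1.96 ± 0.58 (limma adjusted p = 0.019) and 3.33 ± 0.58 (adjusted p = 7.76e-05). Cenpf rose by 1.85, Cenpe, a kinesin of the kinetochore, by 1.58, Ndc80 by 1.41 and Cenph by 1.04 in tumours, with overlapping groups for the last 3.

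All 4 genes of the chromosomal passenger complex, the Aurora B kinase with its partners, rose in tumours against wild-type liver. Birc5 (survivin), the subunit that brings the complex to centromeres, gave 86, 3.5, 73.1 and 42.6 in wild-type, 125.7, 88.2, 102.5, 217.4 and 231 in transgenic livers and 929.4, 189.5, 379.4, 285.3 and 641.3 in tumours. Wild-type livers did not overlap with either group, yet the change in transgenic liver missed the threshold (1.48 ± 0.58, limma adjusted p = 0.0885), and the rise in tumours was 2.93 ± 0.58 (adjusted p = 0.000412). Aurkb, the kinase, rose by 2.94 in tumours and stood at 1.67 in transgenic liver (adjusted p = 0.0527). Cdca8 (borealin) rose by 1.77 and Incenp, the scaffold, by 1.17 in tumours.

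Of the 7 mitotic kinesins, the motors of the spindle, 5 rose in tumours and 0 passed in transgenic liver. Kif20a, needed for cytokinesis, rose by 2.29, Kif22, a chromosome arm motor, by 1.96, Kif23 of the central spindle by 1.73, Kif20b by 1.43 and Kif2c, which takes microtubules apart, by 1.19. Kif11 (Eg5, which pushes spindle poles apart) had a change of 0.93 and Kif4, a chromokinesin, of 1.53, and neither passed (limma adjusted p = 0.0845 and 0.0795). Kif4 was uneven within groups, at 264.4, 105.6, 227.8, 20.5 and 373.8 in the tumours.

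Among 9 genes of the spindle midzone and cytokinesis, 8 rose in tumours and 2 in transgenic liver. Anln (anillin, which scaffolds the contractile ring) gave 39.5, 50.3, 54.8 and 48.9 in wild-type, 156.9, 94.9, 135.3, 200.3 and 191.2 in transgenic livers and 586.2, 214.8, 383.3, 188.6 and 754.5 in tumours. Wild-type livers were tight and lay apart from both groups. Anln rose by 1.38 ± 0.42 in transgenic liver (limma adjusted p = 0.0225) and by 2.60 ± 0.42 in tumours (adjusted p = 2.77e-05). Nusap1, a spindle-associated microtubule binder, rose by 1.42 and 2.67. Ect2 (2.55), Racgap1 (1.76) and Prc1 (1.99), which set up the cleavage plane, Hmmr (2.12), Tpx2 (1.52) and Gas2l3 (1.29) rose in tumours, whereas Cep55, an abscission protein, had 0.98 (adjusted p = 0.0509).

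All 4 genes that shape or hold chromosomes rose in tumours. Top2a, the topoisomerase that untangles sister chromatids, gave 111.2, 38.7, 39.6 and 81.8 in wild-type, 147.7, 64.9, 99.1, 238.4 and 272.6 in transgenic livers and 621, 198.2, 382, 337.2 and 702.8 in tumours. Wild-type and transgenic livers overlapped (1.05 ± 0.43, limma adjusted p = 0.108), and tumours stood above every wild-type liver (2.44 ± 0.43, adjusted p = 0.000107). Ncapg, a condensin subunit, gave 37.3, 8, 2.5 and 1.8 in wild-type and 37.7, 29.6, 29.7, 63.4 and 47.5 in transgenic livers, overlapping only through wild type replicate 1. Its tumour signals were 155.2, 46.5, 68.3, 52.1 and 186.8, and it rose by 1.14 ± 0.35 (limma adjusted p = 0.0245) and 2.04 ± 0.35 (adjusted p = 6.79e-05). Ncaph, its condensin partner, rose by 1.05 and Cdca5 (sororin, which protects cohesion) by 1.90 in tumours.

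Mki67, the proliferation marker that coats mitotic chromosomes, gave 68.1, 12.6, 8.3 and 30.4 in wild-type, 161, 98.8, 139.8, 200.8 and 255.8 in transgenic livers and 870.8, 230.3, 342, 248.5 and 998.6 in tumours. Wild-type livers lay below all others, and transgenic livers and tumours overlapped. Mki67 rose by 2.15 ± 0.53 (limma adjusted p = 0.00478) and 3.51 ± 0.53 (adjusted p = 1.11e-05). Leaving out the arrays with muscle or pancreas transcripts, which took replicate 4 from both groups, left 5 members called higher in transgenic liver, 4 of them among the 10, and 41 called higher in tumours. Leaving out wild type replicate 3 or transgenic replicate 4 or 5 left 5, 5 and 4 called in transgenic liver, and an offset of 64 left 4.

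**Figure D4:**
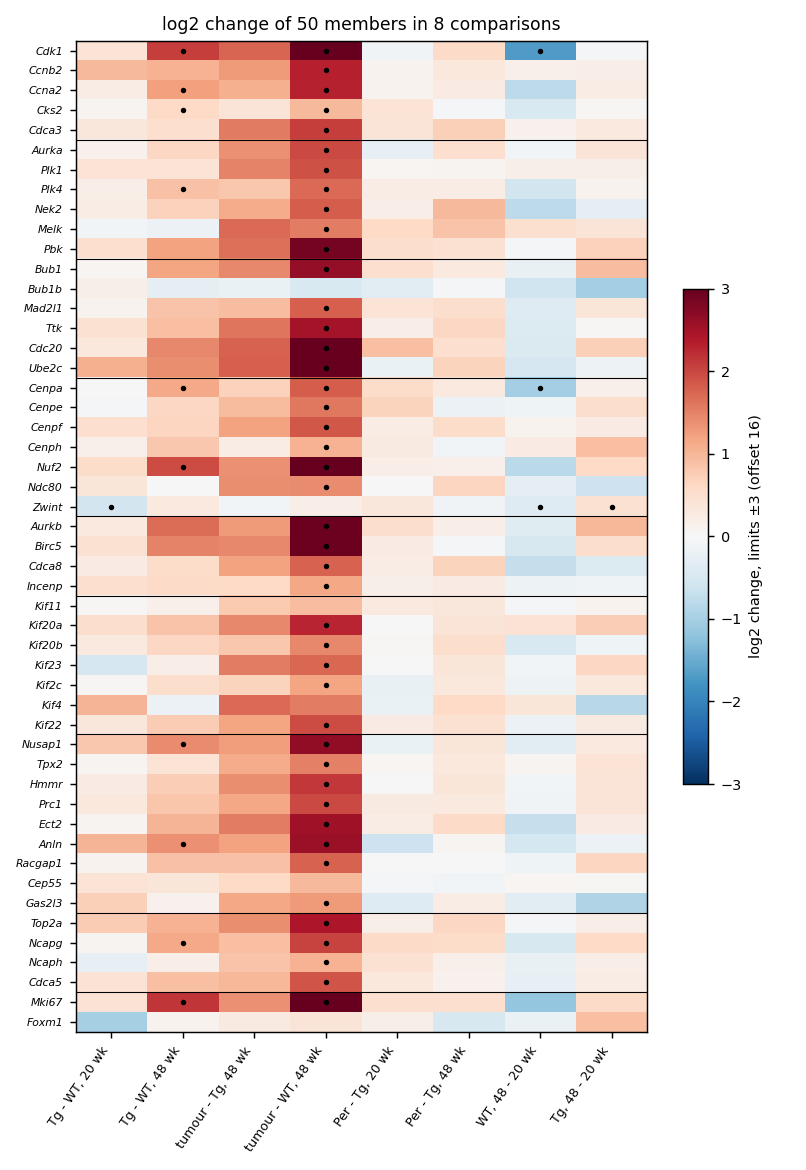
Log2 change (colour, cut at ±3) of the 50 members (rows, in 9 role groups divided by lines) in 8 comparisons (columns). Dots mark limma adjusted p under 0.05. The column of tumours against wild type holds 44 dots and that of transgenic against wild type at week 48 holds 10, and the peretinoin columns and that of tumours against transgenic liver hold none.

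Tumours were next set against transgenic livers of the same age. No member passed, and neither did any other gene: limma called 0 of 18193 genes in either direction. The members nevertheless lay higher in tumours. Of the 50, 48 had a change above 0 (51.5% of all genes had), with a median log2 change of 1.21 against 0.01 for all genes, 45 (90%) had an unadjusted p under 0.05 with a higher signal, where 4.01% of all genes did, and 33 (66%) were at least 2-fold higher, where 0.753% of all genes were. Members moved together within groups (mean correlation 0.586, described below), so these counts are not independent and rest on the same few samples. The same holds for counts of members above 0 in the other comparisons. The lowest adjusted p was 0.279, and the 2 members below 0 were Zwint (-0.08) and Bub1b (-0.19). The groups did not overlap for 5 members, Cdk1, Plk1, Melk, Cenpf and Nusap1, and for 0.846% of all genes in that direction. Cdk1, with the signals above, was 3.37-fold higher (1.75 ± 0.45, limma adjusted p = 0.279). Melk, a kinase of cycling and progenitor cells, gave 8.6, 3.6, 32.3, 15.2 and 62.8 in transgenic livers and 155.2, 67.5, 81.9, 88.7 and 128.3 in tumours (1.71 ± 0.46, adjusted p = 0.279). Every tumour lay above every liver, and all 5 livers and tumour 2 lay under the medians of their arrays. For Pbk the livers gave 140.9, 113.1, 144.3, 354.3 and 276.5, and the highest liver lay above the lowest tumour (1.65 ± 0.45, adjusted p = 0.285).

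Tumours themselves differed. Replicates 1 and 5 were the 2 highest tumours for 45 of 50 members, and tumour 2 had signals near the transgenic livers for many, such as Ube2c with 124.2 in tumour 2 and 1165.5 and 1135 in tumours 1 and 5. Transgenic livers 4 and 5 were the 2 highest of their group for 34 members. They reached the lowest tumour for 38 and 40 members, while the other transgenic livers did so for 7 to 12.

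Peretinoin was compared with the basal diet in transgenic mice at both ages. None of the 50 members passed at week 48, where limma called 0.066% of all genes higher and 0.275% lower, and 1 (Nek2) had an unadjusted p under 0.05 with a higher signal, where 4.85% of all genes did. The median log2 change was 0.34, with 41 members above 0, against a median of -0.02 and 46.4% above 0 for all genes. The signals of Nek2 were 235.4, 144.3, 140.5, 327.5 and 316.5 without and 224.6, 299.3, 320.3, 759.7 and 1012.5 with peretinoin, and the groups overlapped (0.96 ± 0.34, limma adjusted p = 0.22). Melk gave 3.1, 30.3, 59.9, 132 and 94.5 with peretinoin (0.85 ± 0.46, adjusted p = 0.489). Cdca8 gave 117.2, 87.4, 105.7, 188.4 and 165.4 without and 121.8, 154.8, 87.3, 507.1 and 469.7 with it (0.66 ± 0.36, adjusted p = 0.5).

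The means of the peretinoin group at week 48 do not describe its livers well, because they fell apart into low and high ones. Cdk1 gave 140.8, 204.4, 194.9, 758.5 and 767.7, Mki67 110.7, 136.3, 85, 626.7 and 805.5, and Cdc20 144.9, 249.5, 117.7, 1494.4 and 2152.3. In each gene the first 3 livers lay within or near the range of the transgenic livers on basal diet and the last 2 among the tumours. Replicates 4 and 5 were the 2 highest livers of the group for 45 of 50 members. Replicate 4 reached at least the lowest tumour for 46 members and at least the median tumour for 34, and replicate 5 for 49 and 43, whereas replicates 1 to 3 reached the lowest tumour for 5, 10 and 9. The labels name these samples as liver. A list of 4 oncofetal and liver tumour markers averaged 6.745, 8.083, 7.821, 8.427 and 8.394 on the log2 scale in the 5 livers, highest in replicates 4 and 5, against 7.855 to 8.846 in transgenic livers and 8.432 to 8.931 in tumours. Single genes of that list varied: Ly6d read 256, 4813.4, 2812.5, 2374.3 and 11919.4 and Afp 224.3, 181.5, 200.6, 622.2 and 135. Igf2 and Gpc3, also on the list, had means of 80.1 and 44.4 in this group. Those means were 152.7 and 67.6 in transgenic livers and 155.4 and 76.3 in tumours of week 48. The part of these markers in the split was not tested. The muscle list stood apart in replicate 1 of this group and in neither high liver, and the hepatocyte list read 14.6 and 14.3 in these.

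At week 20 also no member passed with peretinoin (median log2 change 0.20), where 0.813% of all genes were called higher and 0.638% lower. Above 0 were 37 members, against 50% of all genes, and 2 members were higher at an unadjusted p under 0.05, against 7.87% of all genes. Zwint gave 1435.1, 1813.1, 1731.6, 1848.6 and 1902.6 without and 2188, 2253.3, 2170.1, 2434 and 2040.9 with peretinoin, without overlap (0.35 ± 0.10, limma adjusted p = 0.067). Cks2 gave 2273.6, 1710.1, 1824.1, 1821.5 and 2133.7 against 2603.6, 4145, 2322.3, 2204.6 and 2125.2 (0.42 ± 0.17, adjusted p = 0.203). For Cenpa the values were 250.6, 198.7, 190.5, 241.8 and 257.1 against 323.2, 371.2, 303.3, 364.2 and 345.1, which do not overlap either, as for 1.7% of all genes (0.56 ± 0.28, adjusted p = 0.324). The peretinoin effect did not differ between ages for any member by limma: the smallest p belonged to Zwint (-0.45 ± 0.14, adjusted p = 0.151), then Cks2 (-0.47, adjusted p = 0.455) and Nek2 (0.76, adjusted p = 0.579), where 0.137% of all genes were called higher and 0.126% lower. With peretinoin at week 48, Zwint gave 1924.4, 2225.2, 2629.9, 2053.8 and 2367 and Cks2 1729.1, 1517.6, 1520.7, 2976.8 and 2165.4, and both genes overlapped with the transgenic livers on basal diet. At week 20 Nek2 gave 198.4, 277.4, 215.7, 277.4 and 466.1 without and 361, 327.8, 177.4, 471.2 and 325.1 with peretinoin. The Actb 3′/5′ ratio at week 20 was 1.62 to 1.74 in transgenic livers on basal diet and 2.66, 3.31, 2.54, 2.38 and 1.7 with peretinoin, and its part in these values was not tested.

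The transgene at week 20, the age of fibrosis, went with 0 members higher and 1, Zwint, lower, where 11% of all genes were called higher and 5.35% lower. The members' median was 0.29 and 43 were above 0, as were 52% of all genes. The higher share among all called genes was 67.2%, and 46.5% after median centring. Cdk1 gave 266.2, 209.4, 93.1, 174 and 111.2 in wild-type and 177.7, 217.3, 189.9, 241 and 263.1 in transgenic livers, which overlap. Mki67 gave 114.8, 94.4, 92.5, 47.1 and 44.3 against 126, 87.2, 74.9, 64.6 and 230.4. Top2a gave 83.6, 57.3, 65.2, 71.7 and 56.7 against 118, 125.9, 86.7, 125.9 and 179.4, Anln 99.8, 83.4, 61.3, 73.2 and 68.5 against 194.7, 167.2, 166.3, 176.1 and 154.3. The groups of these 2 genes and of Nusap1 and Gas2l3 did not overlap, as for 8.63% of all genes, but the genes did not pass (Anln 1.02 ± 0.39, limma adjusted p = 0.0746, and Top2a 0.77 ± 0.41, adjusted p = 0.22). Foxm1 (-1.0 ± 0.43, adjusted p = 0.112) did not pass either. The effect of the transgene at week 48 minus that at week 20 was above 0 for 44 members and for 48.6% of all genes, with a median of 0.48 over the members. It was 1.67 ± 0.65 for Cdk1 and 1.72 ± 0.73 for Mki67, and neither passed (limma adjusted p = 0.322 and 0.364).

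The ages were compared within wild-type, transgenic and peretinoin-fed livers. In wild-type liver, from week 20 to week 48, 3 members fell and 0 rose, where 2.93% of all genes were called lower and 1.81% higher, and the median was -0.24. Cdk1, at the signals given above, fell by 1.70 ± 0.47 without overlap (limma adjusted p = 0.0331). Cenpa gave 325.6, 135.3, 269.1, 236.1 and 221.5 at week 20 and fell by 1.01 ± 0.29, although week 20 replicate 2 lay inside the later range (adjusted p = 0.0418). The third was Zwint (-0.38 ± 0.11, adjusted p = 0.0308). Leaving out week 20 replicate 4 ended all 3 calls, leaving out any single other array left 1 or 2, and without the arrays with muscle or pancreas transcripts 1 was called. The Actb 3′/5′ ratio was 1.81 to 2.16 in wild-type livers at week 20 and 1.39 to 1.71 at week 48, without overlap. Transgenic livers, at 1.62 to 1.74 in week 20 and 1.3 to 1.57 in week 48, also lay apart by age and, at week 20, from the wild type. The part of this ratio in the calls of these comparisons was not tested. In transgenic liver 1 member, Zwint, was called from week 20 to week 48 (higher, where 4.14% of all genes were higher and 6.5% lower). The members' median was 0.26, with 39 above 0 (47.8% of all genes). Mean signals at the 2 ages in transgenic liver were 217.8 and 224 for Cdk1, 227.7 and 261 for Cenpa, 1953 and 1998 for Cks2 and 116.6 and 171.2 for Mki67. In wild-type liver they were 170.8 and 45.3, 237.5 and 109.8, 1827 and 1328, and 78.6 and 29.9. With peretinoin 0 members were called, and 3.37% of all genes were higher and 5.78% lower. The smallest p there belonged to Kif2c, at 45.8, 97.5, 44.7, 90 and 74.3 in week 20 and 96.4, 124.6, 111.6, 146.9 and 238 in week 48 (0.87 ± 0.29, limma adjusted p = 0.0579), then to Cks2 (-0.43, adjusted p = 0.10) and Aurka (1.13, adjusted p = 0.111). Aurka gave 90.4, 53.7, 11.3, 127.2 and 132.2 at week 20 and 82.5, 107.7, 80.2, 333 and 513.3 at week 48, with overlap.

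Zwint, which anchors the ZW10 complex at kinetochores, did not follow the other members. Its group means lay between 1746 and 2577, and it was the member with a call where the others had none. At week 20 wild-type livers gave 2518, 2345, 2457.7, 3191.1 and 2374.4, all above the transgenic livers listed above. Zwint fell by 0.55 ± 0.10 with the transgene (limma adjusted p = 0.000131). At week 48 wild-type livers gave 2056.5, 2268.9, 1720.2 and 1842.5, transgenic livers 2715.2, 2484.7, 2525.4, 2112.1 and 2201.4 and tumours 2496.8, 2044.8, 2209.4, 2180.4 and 2394.6, and all 3 groups overlap. The transgene effect at week 48 was 0.29 (adjusted p = 0.0639), and the effect was 0.84 ± 0.14 higher than at week 20 (limma adjusted p = 0.00651), where 0.044% of all genes were called higher and 0.066% lower. From week 20 to week 48 Zwint rose by 0.46 ± 0.10 in transgenic liver (adjusted p = 0.0029). Zwint has 7 probe sets, and with the mean over a gene's probe sets none of these calls held.

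Foxm1, the transcription factor that drives many of the other members, and Bub1b, the checkpoint kinase BubR1, also stood aside. The choice of probe set mattered for both, and for some other members named below. The Foxm1 probe set that stood for the gene gave 102.3, 162.9, 18.2 and 112.1 in wild-type livers, 74, 99.8, 79.6, 88 and 112.6 in transgenic livers and 112.4, 103, 136.9, 119.8 and 91.7 in tumours (0.38 ± 0.45 for tumours against wild type, limma adjusted p = 0.633). A dimmer Foxm1 probe set had mean signals of 6.38 in wild-type livers, 6.48 in transgenic livers and 51.1 in tumours, and it rose by 1.39 ± 0.35 in tumours in a limma fit over all probe sets (adjusted p = 0.00559). Further Foxm1 probe sets, of mean signal 44.0 and 9.86 over all arrays, were not called in that fit (0.48 and 0.04, limma adjusted p = 0.597 and 0.95). For Bub1b the chosen probe set had means of 39.1 in wild-type livers, 32.6 in transgenic livers and 24.5 in tumours, with no call. Another, of nearly the same mean over all arrays (44.6 against 45.8), had 9.75, 22.4 and 105.4 and rose by 2.0 ± 0.39 in tumours (limma adjusted p = 0.000469).

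The members had 119 probe sets in all, and 35 members had more than 1. In a limma fit over all 34945 probe sets, 25 of the 69 that did not stand for their gene were called higher in tumours. The comparison was with wild-type liver, and 0 were called lower. The calls came to 13 of the 23 whose mean signal reached the average array median of 82.3 and to 12 of the 46 below it. Kif11, whose chosen probe set did not pass, had another that was called (1.13 ± 0.36, limma adjusted p = 0.0307). Kif2c and Incenp, which were called, had other probe sets of mean signal 102.9 and 110.7 that were not (limma adjusted p = 0.174 and 0.122). Called members also had probe sets over the array median with a change below 0 and no call. These belonged to Nek2 (mean signal 108, change -0.33), Tpx2 (88.9, -0.32), Cdca3 (87.85, -0.36) and Incenp (84.9, -0.25). Dimmer probe sets without a call are not listed. Counting every probe set, 46 of 50 members had at least 1 called higher, a rule that gives members with several probe sets more chances. The shares called over all 34945 probe sets, and over all genes by that rule, were not counted. With 1 probe set per gene, 12.5% of all genes were called higher.

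**Figure D5:**
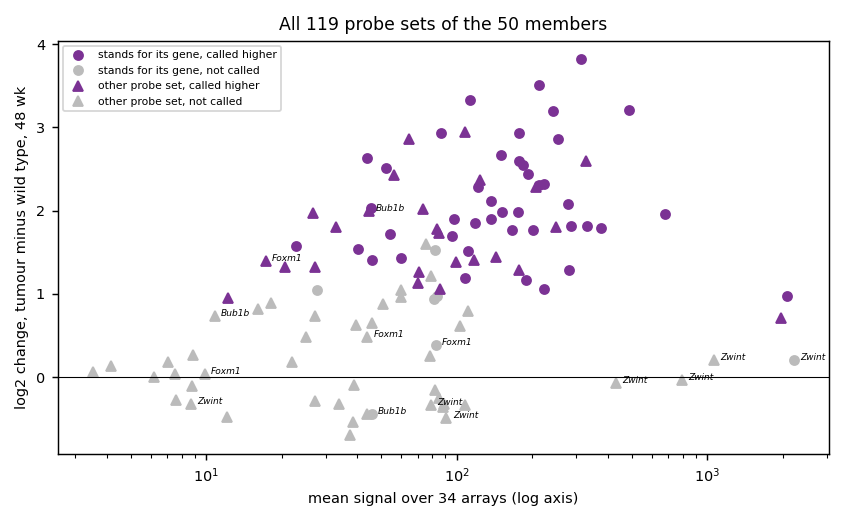
Log2 change of tumours against wild-type liver at week 48 (vertical axis) and mean signal over 34 arrays (horizontal, log axis) for all 119 probe sets of the 50 members. Circles stand for their gene and triangles are other probe sets, in purple where the limma fit over all probe sets called them higher. In that fit Cenph, called in the fit of 1 probe set per gene, missed the threshold (limma adjusted p = 0.0511). Probe sets of Bub1b, Foxm1 and Zwint are named: 1 dim probe set of Foxm1 (1.39) and 1 of Bub1b (2.0) were called, and 0 of Zwint.

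Within groups the members moved together. After each group's mean was taken out, the mean correlation between 2 members over the 34 arrays was 0.586 (median 0.681), that between 2 genes of all measured was 0.00401, and all pairs share the same arrays and their scaling. Without the peretinoin group of week 48 the members' mean was 0.481 over 29 arrays, and without the tumours as well 0.342 over 24. For 44 of 50 members the correlation with the mean of the others was above 0.5. Cdc20 and Cdca3 were closest to it (each 0.948), then Ube2c (0.924) and Mad2l1 (0.922). The 6 below were Bub1b (0.03), Foxm1 (0.09), Zwint (0.14), Cenph (0.28), Cks2 (0.41) and Gas2l3 (0.45).

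A wider list of 70 other mitosis genes, of which 69 were measured, was read in the same comparisons. At week 48, 9 of 69 (13%) rose and 4 fell in transgenic liver, near the 9.73% and 4.6% of all genes. In tumours against wild type 40 (58%) rose and 2 fell, against 12.5% and 6.56% of all genes (median 0.87). Against transgenic liver 0 passed in tumours, and 35 (50.7%) had an unadjusted p under 0.05 with a higher signal, against 4.01% of all genes. Ncapg2, a condensin II subunit, rose by 1.53 in transgenic liver and 2.24 in tumours, Shcbp1, a midbody protein, by 1.79 and 3.02, and Mis18a, which loads Cenpa, by 0.90 and 1.20. Nsl1, of the MIS12 complex of the kinetochore, fell by 1.21 and 1.28. At week 20, 4 of these genes (5.8%) rose with the transgene, a smaller share than the 11% of all genes, among them Ncapg2 (1.08 ± 0.27, limma adjusted p = 0.00453) and Smc4, a condensin core subunit (0.93), and 0 fell. The correlation within groups was 0.28 on average in this list.

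Genes of other cell types also differed between these groups, and their part in the members' levels was not tested. A list of 8 macrophage markers averaged 9.07 (8.46 to 9.50) in wild-type livers, 10.2 (9.65 to 10.7) in transgenic livers and 10.4 (9.99 to 10.8) in tumours at week 48. Its genes did not all go the same way. In that order of groups the mean signals were 2230, 1575 and 1279 for Clec4f, 27.8, 515 and 772 for Gpnmb and 55.7, 1016 and 896 for Cx3cr1. For 8 stellate cell and myofibroblast markers the list averages were 8.42, 10.2 and 10.4 in the same order of groups, and for 6 T and NK cell markers 6.13, 7.09 and 6.64. The 7 neutrophil markers measured averaged 6.86 (6.43 to 7.28) in wild-type livers, 8.72 (7.88 to 10.9) in transgenic livers and 8.28 (7.22 to 10.4) in tumours, and 6 B and plasma cell markers 7.21, 8.29 and 7.73. The 5 red cell precursor markers averaged 6.87 in wild-type livers, 6.52 in transgenic livers and 6.57 in tumours. Among them Hba-a1, Epb42 and Rhag had group means of 41.9 or less, under the array medians, so this list says little. At week 20 the stellate list averaged 10.7 in transgenic livers and 8.25 in wild-type livers.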

How the data were processed

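The values are microarray signal intensities on a linear scale, as deposited, made by the authors with MAS5 (no version is given) per the submitters' processing notes. Per the labels' protocols, RNeasy kits were used for total RNA, which was turned into biotinylated cRNA. The array held 45101 probe sets, 64 of them controls. The platform's probe table paired 34945 with exactly 1 symbol, 932 with several and 9160 with none, and the Entrez IDs of 34754 of the first were found in RefSeq's genes. Genes were named through that table.

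Each intensity became log2(signal + 16), and the probe set of highest mean signal stood for a gene. The 7 groups entered 1 limma model (version 3.58.1, R 4.3.3, functions lmFit and eBayes, with a trend over mean intensity), without a filter on low signals, because a member could pass a filter through the group where it is high; 11 comparisons were made, two-sided. The ± after a log2 change is its moderated standard error. All arrays entered the fit. The 2 most alike arrays correlated at 0.982 and shared 0.293% of their signals exactly, so none was taken for a duplicate. The scripts were tested on simulated data. Alternatives were the offset, a filter on low signals, quantile normalisation, median centring, the mean over a gene's probe sets, a fit of the compared groups alone, a replicate block, eBayes without a trend, leaving out arrays with muscle or pancreas transcripts, and leaving out each replicate.

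The members, the other lists and the rules were chosen with earlier results of these data known. By the rule for named genes, all members may be named. Values in every sample are plotted for a panel (Cdk1, Ccna2, Mki67, Top2a, Birc5, Plk1, Cdc20, Foxm1, Zwint) and given, in the groups compared, for up to 8 called members of smallest p in each direction of a comparison, or the 3 of smallest p where none was called. Of the wider list of mitosis genes up to 4 are named in a comparison. Replicate numbers of the labels were checked for pairing: the correlations of same-numbered arrays' deviations ran from -0.06 to 0.31, no comparison had all above 0.1, and the numbers were not used as pairs.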

Additional observations from a re-analysis of the deposited data

Results flagged for a closer look

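In groups of 4 or 5 arrays, the highest or lowest array of 9 members and of the members' mean was screened against Dixon's critical value in 70 groups, and 4 stood out. Chance picks about 1 in 20 groups. Cdk1 read 63.4 in peretinoin-fed liver replicate 3 of week 20, against 240.1 to 273.9 in the other 4. Ccna2 read 210.7 in wild-type liver replicate 1 of week 20, against 109.6 to 124.3, and the mean log2 level of the 50 members was 6.95 in the same liver, against 6.38 to 6.52. Zwint read 3191.1 in wild-type liver replicate 4 of week 20, against 2345 to 2518. The effect of the transgene on Zwint differed between the ages by 0.84 on the log2 scale (limma adjusted p = 0.00651), from a fall at week 20 to a change of 0.29 at week 48.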

How the results depend on the processing

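Of 44 members called higher in tumours against wild-type liver, 37 to 44 remained called under the other settings (37 with the filter, which left 42 members to test); leaving out 1 array gave 38 to 45 calls. Calls in transgenic liver at week 48 were 4 with an offset of 64 and 5 without the arrays with muscle or pancreas transcripts, and 4 to 13 when 1 array was left out. The shares of all genes under these settings are not given, so counts of 4 or 5 are not shown to exceed them. For wild type with age the count was 1 with an offset of 64, with the mean over probe sets, without a trend and without the muscle or pancreas arrays, 0 in a fit of the compared groups alone, and 0 to 2 when 1 array was left out. The week 20 transgene count was 0 with the mean over probe sets and 5 in a fit of the compared groups alone, 4 of them higher, and 1 to 2 when 1 array was left out. For transgenic liver with age it was 0 with the mean over probe sets, 2 with an offset of 64, in the fit alone and without the muscle or pancreas arrays, and 1 to 2 when 1 array was left out. With peretinoin and age the count was 1 with an offset of 64, the filter, quantile normalisation and the replicate block, 2 with median centring, and 0 to 2 when 1 array was left out. Peretinoin at week 20 had 1 call after quantile normalisation and without the muscle or pancreas arrays, and 0 to 1 when 1 array was left out. The difference of the transgene effect had 0 with the mean over probe sets and 1 when any array was left out, and 0 calls were made for tumours against transgenic liver, for peretinoin at week 48 and for the difference of its effect in every setting run. The replicate block changed no other count by more than 1.5 times. Whether the replicate numbers pair any samples is not given. With the mean over probe sets the sign turned for Cenpa (-0.080), Foxm1 (-0.093) and Zwint (-0.045) in transgenic liver at week 48, for Zwint in tumours against wild type (-0.12) and for Zwint in transgenic liver with age (-0.013). When 1 array was left out, Foxm1 ran from -0.40 to 0.40 in transgenic liver and from -0.13 to 0.67 in tumours against wild type, with the lowest without wild-type replicate 3 and the highest without replicate 2 of week 48. These causes were not tested. Median centring shifted the all-gene median from 0.02 to -0.11 for the transgene at week 20, from -0.01 to 0.20 for the difference of its effect, from -0.02 to 0.10 for transgenic liver with age and from -0.05 to 0.16 for peretinoin with age. Low signals in wild-type liver limit the size of the changes: the members' median in tumours against wild type was 2.18 with an offset of 1 and 1.41 with 64.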
